A study of Mus musculus with 6 samples.

Results

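The 40 genes described here encode the enzymes of glycolysis, the transporters that carry glucose in and lactate out, the kinases that set how much pyruvate is burned or fermented, and a group of genes that cells use to sense or answer low oxygen. They were chosen by name and not by a rule on their values, though with earlier results of these data known. All 40 were found among the 23420 genes of the count tables. Their transcripts had been counted by RNA-seq in 2 tissues of mice at 8 pm on day 4 of pregnancy, just before blastocysts attach, namely the luminal layer of the uterus, isolated from sections with a laser, and blastocysts washed out of the uterus. The females were *Lif*-floxed/floxed without Cre (control), *Lif*-floxed/floxed *Ltf*-Cre/+ (*Lif* eKO), or *Lif* eKO injected with the recombinant cytokine (rLif). The dose was 20 µg per head, injected at 10 am and again at 6 pm, and tissues were taken 2 h after the last injection. The other females are labelled as given PBS, and all embryos are labelled *Lif*-floxed/+. *Lif* (leukemia inhibitory factor) is a cytokine that the uterine glands release before implantation, and the *Ltf* promoter drives Cre in the uterine epithelium, so that stroma keeps the gene. Each group was 1 library, made from pooled tissue of several females or from pooled blastocysts. No difference below therefore has a replicate check, the spread between animals is unknown, and no p-value is given.

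Glycolysis splits glucose into pyruvate, and pyruvate either enters mitochondria through pyruvate dehydrogenase or is reduced to lactate by lactate dehydrogenase and exported. When oxygen is low, the hydroxylases encoded by *Egln1* and *Egln3* stop marking the transcription factor subunit *Hif1a* for destruction, and *Hif1a* then switches on glucose transporters, glycolytic enzymes and factors such as *Vegfa* and *Adm*. Blastocysts are known to take up more glucose and make more lactate than earlier embryos, and the receptive uterine epithelium is known as a glycolytic tissue.

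Hif1 binds the letters ACGTG or GCGTG on either strand, and Stat3, the factor that *Lif* activates, binds TTCNNNGAA. RefSeq promoter windows (build GRCm38.p6) were matched for 37 members by symbol; *Slc2a3*, *Ndrg1* and *Bhlhe40* were not matched. In the 250 bases before a start, ACGTG was present in 45.6% of the 57 windows of members and in 16.6% of all 32851 windows. GCGTG was present in 52.6% of member windows and in 28.2% of all windows. Either motif was present in 77.2% of member windows and in 38.6% of all windows. At least 1 window with either motif was found for 34 of the 37 members, the exceptions being *Gpi1*, *Tpi1* and *Eno2*. No such count per gene was made for other genes. Member windows were also richer in bases that make such motifs likely, with a median GC content of 59.6% against 52.4% and a median of 13 against 6 CpG pairs. TTCNNNGAA was the less frequent motif, in 3.51% of member windows and 7.02% of all windows, and only *Aldoc* and *Pfkm* had it. The stretches from 150 to 6 bases before the start are printed for 6 members with large differences between libraries: *Ldha*, *Slc16a3* and *Slc2a1*, which were lower in both *Lif* eKO blastocyst libraries, *Hk2* and *Pfkfb3*, which were higher in the luminal library labelled eKO, and *Aldoc*, which was almost lost there. Capitals mark ACGTG or GCGTG on either strand (CACGT and CACGC on the other strand, and CACGTG where both strands match), and TTCNNNGAA in *Aldoc*.
Ldha: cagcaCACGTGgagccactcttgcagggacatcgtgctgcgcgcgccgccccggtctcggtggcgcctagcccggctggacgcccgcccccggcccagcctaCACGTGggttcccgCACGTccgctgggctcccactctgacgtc
Slc16a3: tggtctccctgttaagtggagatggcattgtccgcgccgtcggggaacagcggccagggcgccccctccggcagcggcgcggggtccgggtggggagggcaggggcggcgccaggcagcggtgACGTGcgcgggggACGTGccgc
Slc2a1: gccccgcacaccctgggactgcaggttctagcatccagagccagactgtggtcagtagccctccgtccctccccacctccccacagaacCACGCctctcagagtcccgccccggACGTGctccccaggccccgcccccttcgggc
Hk2: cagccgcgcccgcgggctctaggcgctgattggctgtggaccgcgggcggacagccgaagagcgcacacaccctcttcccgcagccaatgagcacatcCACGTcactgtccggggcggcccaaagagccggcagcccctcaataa
Pfkfb3: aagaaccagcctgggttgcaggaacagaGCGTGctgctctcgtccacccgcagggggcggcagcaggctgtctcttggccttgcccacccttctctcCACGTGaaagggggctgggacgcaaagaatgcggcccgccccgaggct
Aldoc: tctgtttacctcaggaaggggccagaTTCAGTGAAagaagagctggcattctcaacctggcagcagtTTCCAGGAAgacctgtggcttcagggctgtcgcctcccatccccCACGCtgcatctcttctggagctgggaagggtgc
These stretches lie at chr7:46845654-46845798 (plus strand, *Ldha*), chr11:120948917-120949061 (plus, *Slc16a3*), chr4:119108595-119108739 (plus, *Slc2a1*), chr6:82774460-82774604 (minus, *Hk2*), chr2:11502096-11502240 (minus, *Pfkfb3*) and chr11:78324048-78324192 (plus, *Aldoc*). *Ldha*, *Pfkfb3* and *Aldoc* each had 2 RefSeq windows, and the one with more matches is shown. Which start the transcripts in these libraries used is not known from gene counts. The *Ldha* stretch held CACGTG at 145 and 48 bases before the start and CACGT at 34 bases. The *Aldoc* stretch held TTCAGTGAA at 124 bases and TTCCAGGAA at 83 bases before the start. A match describes the letters and not a bound site. In the count tables *Slc2a3* spans chr6:122727809-122742745, *Ndrg1* chr15:66929318-66969641 and *Bhlhe40* chr6:108660629-108666925 (GRCm38/mm10).

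The values are whole-number read counts. Library totals ran from 18996158 to 28460465 counts, and the 40 members together took from 0.571% to 0.903% of them. A count of 0 allows up to 3 counts, or 0.105 to 0.158 CPM (counts scaled to a common library size). Counts are compared within a tissue after scaling library sizes by the trimmed mean of M-values (TMM), as log2 ratios of 2 libraries with exact 95% Clopper-Pearson intervals. A gene is called higher or lower where that interval lies wholly beyond a log2 ratio of 1, that is, beyond a 2-fold difference, in 1 direction. Levels of different genes are compared as RPKM, counts scaled by exon length and library size. The intervals cover counting error only, not spread between animals. They may be too narrow even for counting error, since PCR reads without molecular identifiers are not independent molecules. In these bulk samples, fewer cells of a type and less RNA per cell cannot be told apart.

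*Lif* itself went against the labels of the luminal libraries, with 0 counts under the control label, 28 under eKO and 0 under eKO + rLif. It is known as a product of the glands rather than of the luminal layer. The luminal libraries are therefore named by their labels throughout. Markers of luminal epithelium were all detected in these 3 libraries, 12 of 12, and summed to 8480 to 10500 RPKM. Of 7 inner cell mass markers, 5 were at 0 in each luminal library, *Pou5f1*, *Nanog* and *Fgf4* among them in all 3. In the blastocyst libraries the same 7 markers summed to 770.0 to 882 RPKM, and luminal epithelium markers to 4660 to 5030 RPKM, with 11 of 12 detected and *Wnt7a* at 0 in all 3. That list includes *Krt8* and *Krt18*, which trophectoderm also makes.

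Some members share sequence with other genes, so that their counts may hold or have lost reads of copies. Of the 50-base windows of the longest *Gapdh* transcript, 82.5% also occurred in transcripts of other genes, 215 of them pseudogenes, and the gene listed only 143 to 1476 counts. The same share was 72.2% for *Eno1*, mostly through its near copy *Eno1b*, and *Eno1* listed 0 to 13 counts. Levels of both enzymes, which every cell needs, cannot be read from such values. The share was 68.0% for *Pgk1*, 62.4% for *Bnip3*, 41.5% for *Pgam1*, 34.4% for *Pkm* and 27.0% for *Ldhb*. It was 16.6% for *Ldha*, 13.5% for *Aldoa* and 7.51% for *Tpi1*. It was 0 for *Slc2a3*, *Hk2*, *Aldoc*, *Slc16a1*, *Slc16a3*, *Pdk1* and *Egln1*. Exons of *Pfkp*, *Tpi1*, *Eno1*, *Pfkfb2* and *Bhlhe40* overlapped those of another gene. The setting for reads that map to several places is not stated in the sources used here, so the values of these genes are uncertain.

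The members fall into 8 roles, and the most abundant gene of each was taken by RPKM. Among the enzymes from hexokinase to triose phosphate isomerase, *Tpi1* (triose phosphate isomerase) was at 785, 623 and 663 RPKM in the luminal libraries labelled control, eKO and eKO + rLif, and at 322, 271 and 228 RPKM in blastocysts from control, *Lif* eKO and rLif-treated *Lif* eKO females. Among the later enzymes, *Pkm* (pyruvate kinase, the last step) was at 149, 112 and 148 RPKM in the luminal libraries and at 342, 275 and 249 RPKM in blastocysts. *Pdk3*, a pyruvate dehydrogenase kinase, was at 29.3, 31.4 and 32.8 RPKM in the luminal libraries and at 0.621, 0.570 and 0.782 RPKM in blastocysts. These 3 genes were not called in any comparison within a tissue. The other role leaders, *Slc2a3*, *Ldha*, *Pfkfb3*, *Egln1* and *Ndrg1*, were each called at least once and are given below with their roles.

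**Figure D1:**
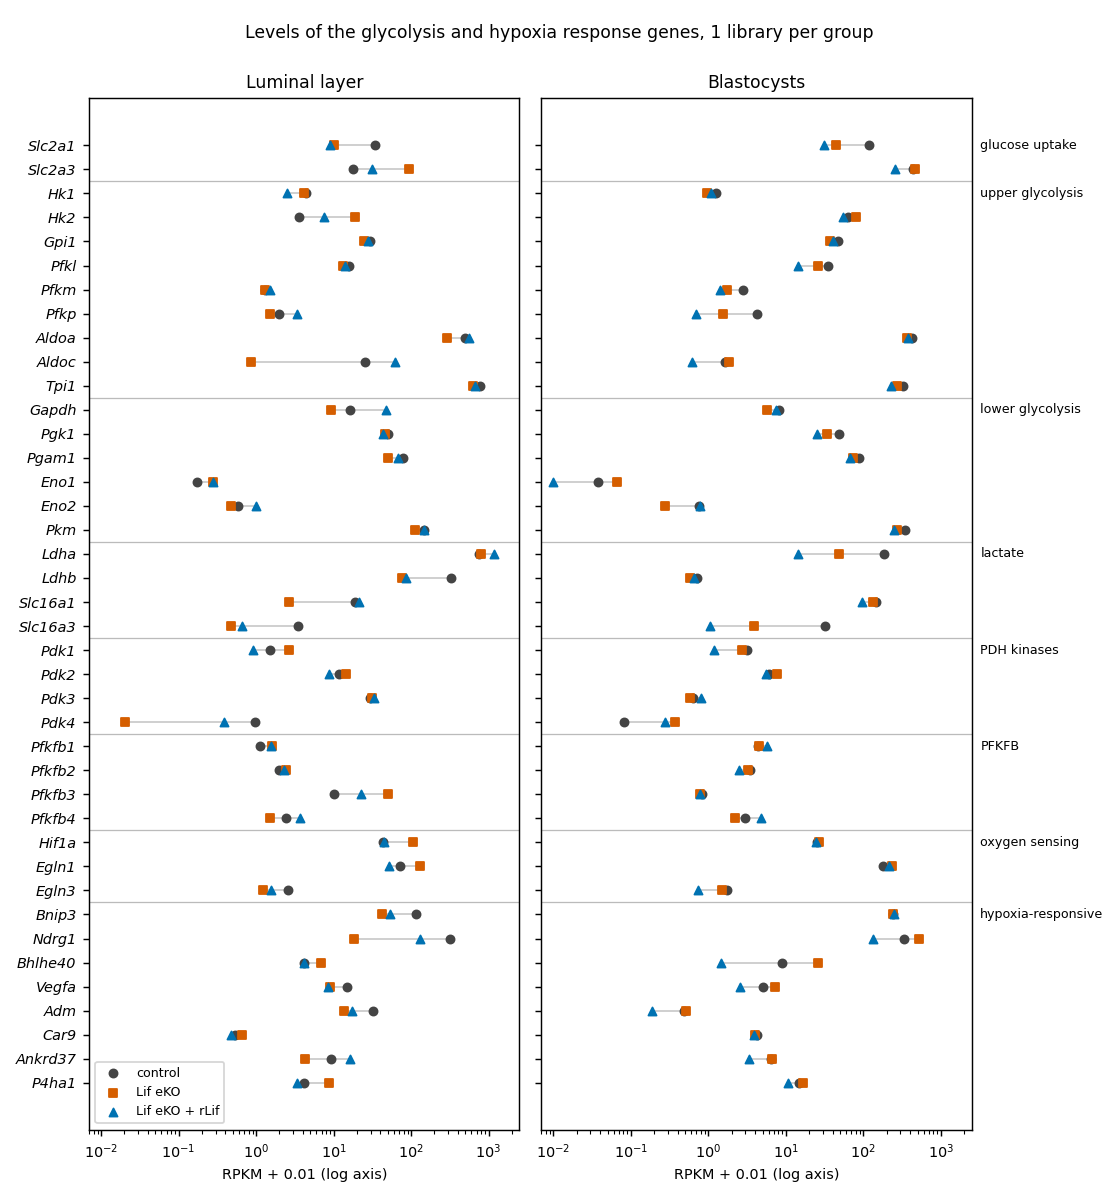
Level of each of the 40 members in the 3 luminal libraries (left) and the 3 blastocyst libraries (right). The x axis is RPKM + 0.01 on a log scale, each symbol is 1 library, grey bars join the lowest and highest library of a tissue, and grey lines part the roles. Aldoc spans from 0.859 to 62.7 RPKM in the luminal layer, while in blastocysts Ldha spans from 14.4 to 185, Slc16a3 from 1.04 to 32.2 and Bhlhe40 from 1.44 to 26.1 RPKM.

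In the luminal layer, the library labelled eKO had more *Slc2a3* and *Hk2* transcripts, for taking up and trapping glucose, and fewer *Slc2a1*, *Slc16a1* and *Slc16a3* transcripts, for glucose uptake and lactate transport, than the library labelled control. Of the 40 members, all of which had at least 10 counts over the 3 luminal libraries, 13 were called: 4 higher (*Slc2a3*, *Hk2*, *Pfkfb3* and *Hif1a*) and 9 lower (*Slc2a1*, *Aldoc*, *Ldhb*, *Slc16a1*, *Slc16a3*, *Pdk4*, *Bnip3*, *Ndrg1* and *Adm*). Across all 15694 genes tested, 17.2% were called, 8.08% higher and 9.15% lower, against 32.5% of the members. The median log2 ratio was -0.29 over the members and 0.00 over all genes tested. Because members are mostly abundant genes, whose intervals are narrow, the share was also taken over genes with at least 1000 counts over the 3 libraries, a limit set after the values were seen. There, 14.0% of 8318 genes and 11 of 28 members were called. The labels of the control and eKO libraries give these directions, and *Lif* counts went against those labels. With edgeR's exact test at a dispersion fixed at 0.1, a stricter rule that allows for spread between libraries, 9 of these 13 calls were left, those of *Slc2a3*, *Hk2*, *Pfkfb3*, *Aldoc*, *Ldhb*, *Slc16a1*, *Slc16a3*, *Pdk4* and *Ndrg1*.

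Between the library labelled eKO + rLif and the library labelled eKO, 14 of 40 members were called, 7 higher and 7 lower, where 15.6% of all genes were (7.88% higher, 7.77% lower). The median was 0.14 over the members and -0.01 over all genes, and with *Actb* as the reference both medians were lower, at -0.07 and -0.22. Among genes with at least 1000 counts, 12.2% of all and 10 of 28 members were called. The higher members were *Aldoc*, *Gapdh*, *Slc16a1*, *Pdk4*, *Pfkfb4*, *Ndrg1* and *Ankrd37*, and the lower ones *Slc2a3*, *Hk2*, *Pdk1*, *Pfkfb3*, *Hif1a*, *Egln1* and *P4ha1*. Between the libraries labelled eKO + rLif and control, 8 of 40 were called, 3 higher and 5 lower, where 9.16% of all genes were (4.12% higher, 5.04% lower), with medians of -0.04 and 0.01. Among genes with at least 1000 counts, 5.34% of all and 7 of 28 members were called. *Aldoc*, *Gapdh* and *Pfkfb3* were higher there, and *Slc2a1*, *Ldhb*, *Slc16a3*, *Bnip3* and *Ndrg1* were lower. By edgeR's exact test at a dispersion of 0.1, 5 of the 14 calls against eKO were left (*Aldoc*, *Gapdh*, *Slc16a1*, *Pdk4* and *Ndrg1*) and 1 of the 8 against control (*Slc16a3*). The 3 comparisons share libraries, so their calls are not independent of each other.

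**Figure D2:**
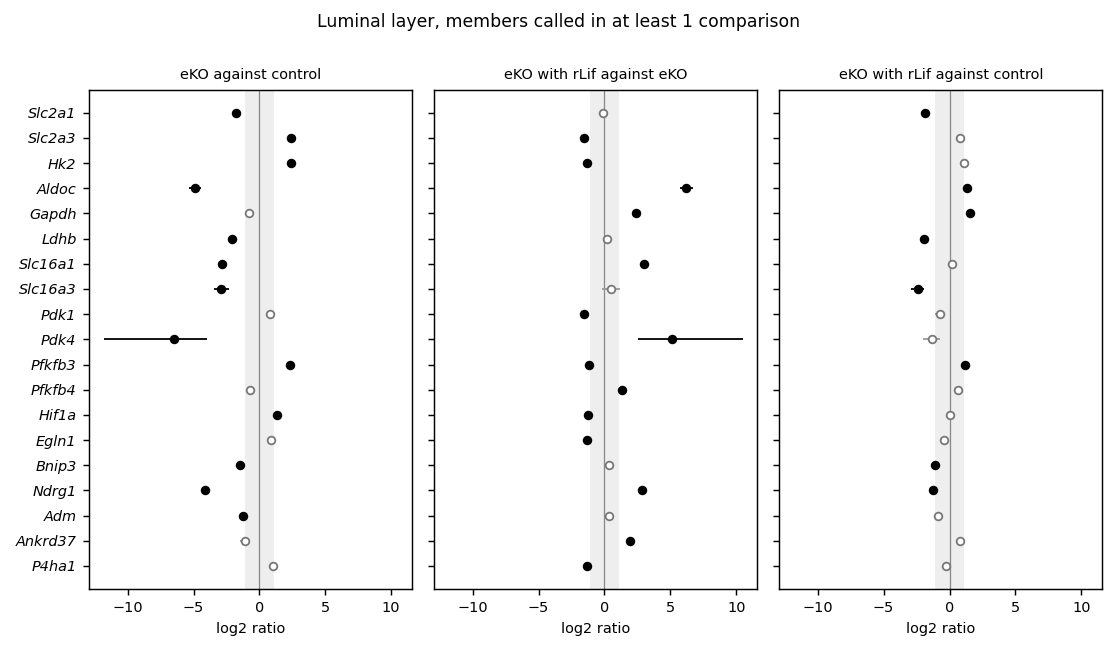
Log2 ratios of the 19 members called in at least 1 luminal comparison. Bars are exact 95% intervals for counting error, filled points are called, open points are not, and the grey band marks ratios within 2-fold. Slc2a3, Hk2, Pfkfb3 and Hif1a lie to the right in the first panel and to the left in the middle one, while Slc2a1, Ldhb and Slc16a3 lie to the left in the first and last panels and inside or across the band in the middle one.

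Both glucose transporters differed, in opposite directions. *Slc2a3*, the high-affinity transporter GLUT3, had 1714 counts under the control label, 10057 under eKO and 3068 under eKO + rLif. Its log2 ratio of eKO against control was 2.37 (95% interval 2.29 to 2.44), a 5.16-fold higher value, and with rLif it was 2.97-fold lower than in eKO. *Slc2a1*, the widespread transporter GLUT1, had 2116, 703 and 587 counts in the same order. It was 3.42-fold lower in eKO (-1.78, interval -1.90 to -1.65) and stayed at that level with rLif, the ratio to eKO being -0.12 (interval -0.28 to 0.04). As a result *Slc2a3* made up 34.5% of the summed RPKM of both transporters under the control label, 90.3% under eKO and 77.2% under eKO + rLif. *Slc2a3* was thus the minor transporter in 1 luminal library and the major one in the other 2.

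In the upper part of glycolysis 2 of 9 enzyme genes were called against control. *Hk2*, a hexokinase that traps glucose by phosphorylation, had 475, 2815 and 1024 counts (control, eKO, eKO + rLif labels). It was 5.21-fold higher in eKO (2.38, interval 2.24 to 2.52) and 2.49-fold lower again with rLif. *Hk1*, the hexokinase of most tissues, had 472, 512 and 284 counts and was not called, so the *Hk2* share of hexokinase RPKM went from 45.2% to 81.8% and 74.7%. *Aldoc*, the aldolase C isoform, had 1041, 40 and 2671 counts. It was 29.6-fold lower in eKO (-4.89, interval -5.38 to -4.43) and 73.7-fold higher with rLif than in eKO (6.20, interval 5.75 to 6.69), which put it 2.49-fold above the library labelled control. *Aldoc* was the member with the widest range among the luminal libraries apart from *Pdk4*, which has far fewer counts. The main aldolase gene *Aldoa* had 21571, 14683 and 25914 counts and was not called in any comparison, so *Aldoc* never exceeded 9.95% of aldolase RPKM. The phosphofructokinase genes *Pfkl*, *Pfkm* and *Pfkp*, *Gpi1* and *Tpi1* were not called, with log2 ratios between -0.37 and -0.03 for eKO against control. *Pfkl* had 1405, 1338 and 1301 counts and *Pfkp* 188, 165 and 332.

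In the lower part of glycolysis no gene of 6 was called in eKO against control, and 5 of the 6 ratios were negative. *Pkm* was at -0.41 (interval -0.45 to -0.37), *Pgam1* (phosphoglycerate mutase) at -0.65 and *Pgk1* (phosphoglycerate kinase) at -0.11. *Gapdh*, whose counts are uncertain as said above, had 478, 309 and 1476 counts and was called higher with rLif, 5.27-fold against eKO and 2.99-fold against control. With *Gapdh* set aside, the trunk of the pathway from *Gpi1* to *Pkm* showed no call in the luminal layer apart from *Aldoc*.

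Of the 4 genes for making and moving lactate, 3 were lower in eKO. *Ldha*, the lactate dehydrogenase subunit that favours pyruvate to lactate, was the exception, with 35091, 42332 and 56486 counts and an eKO to control ratio of 0.08. *Ldhb*, the subunit that favours the reverse reaction, had 10292, 2708 and 2794 counts. It was 4.32-fold lower in eKO (-2.11, interval -2.17 to -2.05) and still 3.80-fold lower than control with rLif. The *Ldha* share of both subunits was 69.5% under the control label, 91.3% under eKO and 93.1% under eKO + rLif. *Slc16a1*, the monocarboxylate transporter MCT1, had 2003, 318 and 2328 counts, 7.17-fold lower in eKO and 8.08-fold higher with rLif than in eKO. *Slc16a3*, the lactate exporter MCT4, had 214, 33 and 42 counts, 7.38-fold lower in eKO and 5.25-fold lower than control with rLif. *Slc16a1* in the library labelled eKO + rLif was near its level under the control label, at a ratio of 0.17 (interval 0.09 to 0.26), and *Slc16a3* and *Ldhb* were not.

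**Figure D3:**
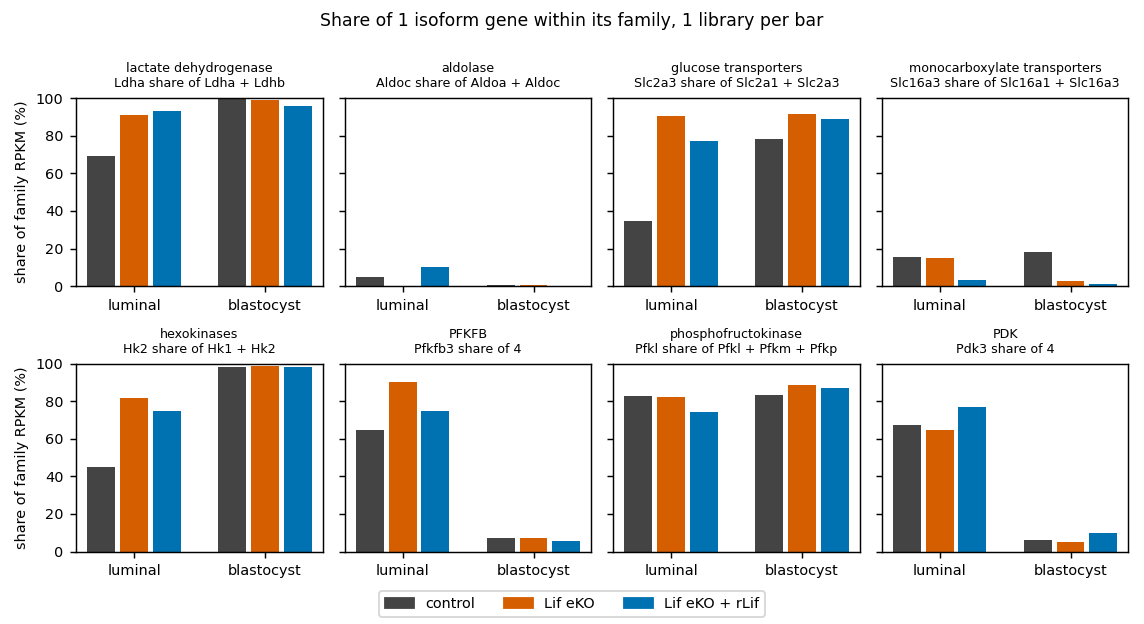
Share of 1 gene in the summed RPKM of its family, as a percentage, for 8 families. Each bar is 1 library, with the 3 luminal libraries on the left of each panel and the 3 blastocyst libraries on the right. In the luminal layer the Slc2a3, Hk2, Ldha and Pfkfb3 shares are lowest under the control label, and in blastocysts the Slc16a3 share falls from 18.2% to 2.73% and 1.06%.

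The kinases that restrain pyruvate dehydrogenase moved singly. *Pdk4*, the isoform induced by fasting and steroids, had 79, 1 and 32 counts. The eKO to control ratio was -6.49 on the log2 scale with a wide interval of -11.81 to -3.97, since it rests on 1 count. *Pdk1*, itself a Hif1 target, had 187, 374 and 117 counts, a ratio of 0.81 (interval 0.56 to 1.08) for eKO and a value 2.90-fold lower with rLif than in eKO. *Pdk2* and *Pdk3* were not called.

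The bifunctional PFKFB enzymes make or break down fructose 2,6-bisphosphate, the strongest activator of phosphofructokinase. *Pfkfb3*, the isoform with the highest ratio of kinase to phosphatase activity, had 1281, 7326 and 2968 counts. It was 5.03-fold higher in eKO (2.33, interval 2.24 to 2.42), 2.24-fold lower with rLif than in eKO, and 2.25-fold above control with rLif, the last of which was no longer called with total counts (0.99). *Pfkfb4* had 198, 140 and 313 counts and was called only for rLif against eKO, 2.47-fold higher, a call that ended with total counts, with TMM over the 6 libraries and with *Actb* as the reference (1.19, 1.29 and 1.09). *Pfkfb1* and *Pfkfb2* were not called. *Pfkfb3* was 64.6% of the RPKM of the 4 genes under the control label and 90.1% under eKO.

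Of the oxygen-sensing genes, *Hif1a* had 4950, 13895 and 5270 counts. It was 2.47-fold higher in eKO (1.30, interval 1.26 to 1.35) and 2.39-fold lower with rLif than in eKO, at a ratio to control of 0.05 (interval -0.01 to 0.10). *Egln1*, the main prolyl hydroxylase, had 6030, 12501 and 4633 counts, short of the limit in eKO at 0.87 and 2.45-fold lower with rLif than in eKO. *Egln3*, a hydroxylase that Hif1 induces, had 164, 90 and 103 counts and was not called. Both *Hif1a* and *Egln1* were thus highest in the library labelled eKO.

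The 8 genes placed in the hypoxia-responsive role did not share the order of *Hif1a* transcripts as a group. *P4ha1*, *Bhlhe40* and *Car9* were highest under eKO, as *Hif1a* was. Other roles held genes of either order, with *Slc2a3*, *Hk2*, *Pfkfb3* and *Pdk1* highest under eKO and *Slc2a1*, *Ldhb* and *Slc16a3* highest under control. Hif1a protein was not measured. Against control, 3 of the 8 were called lower in eKO and none higher. *Ndrg1*, a stress-induced differentiation gene, had 22375, 1433 and 9431 counts, 17.8-fold lower in eKO (-4.15, interval -4.23 to -4.07) and 7.26-fold higher with rLif than in eKO. *Bnip3*, a mitophagy receptor, had 4909, 2033 and 2325 counts, 2.75-fold lower in eKO and 2.18-fold lower than control with rLif. *Adm*, the vasodilator adrenomedullin, had 1066, 509 and 598 counts and was 2.38-fold lower in eKO, though not called with *Actb* as the reference (-1.08). These 3 genes had their highest value under the control label. *P4ha1*, a collagen prolyl hydroxylase subunit, had 403, 955 and 339 counts, a ratio of 1.06 (interval 0.89 to 1.23) in eKO and a value 2.55-fold lower with rLif. *Ankrd37* had 201, 106 and 367 counts and was 3.82-fold higher with rLif than in eKO. *Vegfa*, the endothelial growth factor, had 1510, 1027 and 889 counts, *Bhlhe40*, a repressor of transcription, 306, 577 and 321, and *Car9*, a carbonic anhydrase, 25, 35 and 23, and none of the 3 was called.

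Markers of other cells were measured beside these values. Summed stroma markers, 12 of 12 detected, were at 336, 449 and 316 RPKM under the control, eKO and eKO + rLif labels, highest in the library in which *Hif1a*, *Slc2a3* and *Hk2* were highest too. Immune markers, 11 of 11 detected, were at 1550, 1510 and 1870 RPKM, endothelial markers, 10 of 10, at 46.6, 63.1 and 61.2 RPKM, and smooth muscle markers, 8 of 8, at 42.7, 35.0 and 21.4 RPKM. Gland markers, 8 in the tables, were at 376, 596 and 867 RPKM with *Lif* at 0 under the control and eKO + rLif labels and *Foxa2* at 0 under eKO. Nearly all of that sum was *Sox17*, and without *Sox17* and *Lif* the other 6 were at 15.7, 23.4 and 29.6 RPKM, with the gland protease gene *Prss28* at 55, 13 and 142 counts. The part of these cells in the member values was not tested. Genes that answer tissue handling were at 603, 481 and 1020 RPKM, and their part was not tested either.

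In blastocysts, *Ldha* and *Slc16a3* were called lower in embryos from *Lif* eKO females than in control, and lower again in those from rLif-treated *Lif* eKO females. *Ldha*, *Slc16a3*, *Slc2a1* and *Pfkp* were called lower and *Bhlhe40* higher in eKO against control, 5 of the 39 members tested, of which *Pfkp* was no longer called with *Actb* as the reference, at -1.20. Only 3.15% of the 14873 genes tested were called in that comparison, 1.29% higher and 1.86% lower. The median log2 ratio was -0.16 over the members and -0.00 over all genes, and with *Actb* as the reference both were higher, at 0.14 and 0.30. Among genes with at least 1000 counts over the 3 libraries, 19 of 7616 were called (0.249%), and 4 of those 19 were members. With *Eno1* under the count minimum, the other 34 members tested were not called.

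For rLif-treated eKO against eKO, 5 of 39 members were called, all lower, where 3.75% of all genes were called (0.914% higher, 2.83% lower). They were *Ldha*, *Slc16a3*, *Ndrg1*, *Bhlhe40* and *Vegfa*, and the median was -0.39 over the members and -0.01 over all genes. For rLif-treated eKO against control, 8 of 39 were called, all lower, where 4.94% of all genes were called (0.948% higher, 3.99% lower), with medians of -0.47 and -0.01. They were *Slc2a1*, *Pfkl*, *Pfkp*, *Ldha*, *Slc16a3*, *Pdk1*, *Ndrg1* and *Bhlhe40*, of which *Pfkl*, *Pdk1* and *Ndrg1* were no longer called with *Actb* as the reference. By edgeR's exact test at a dispersion of 0.1, *Slc16a3* was left for eKO against control, *Bhlhe40* for rLif against eKO, and *Pfkp*, *Ldha*, *Slc16a3* and *Bhlhe40* for rLif against control. Among genes with at least 1000 counts, 60 of 7616 (0.788%) were called for rLif against eKO, 5 of them members, and 98 (1.29%) for rLif against control, 6 of them members. The members' counts summed to 171524, 171335 and 117122 in control, eKO and rLif-treated eKO blastocysts, and to 0.903%, 0.872% and 0.603% of the library totals.

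**Figure D4:**
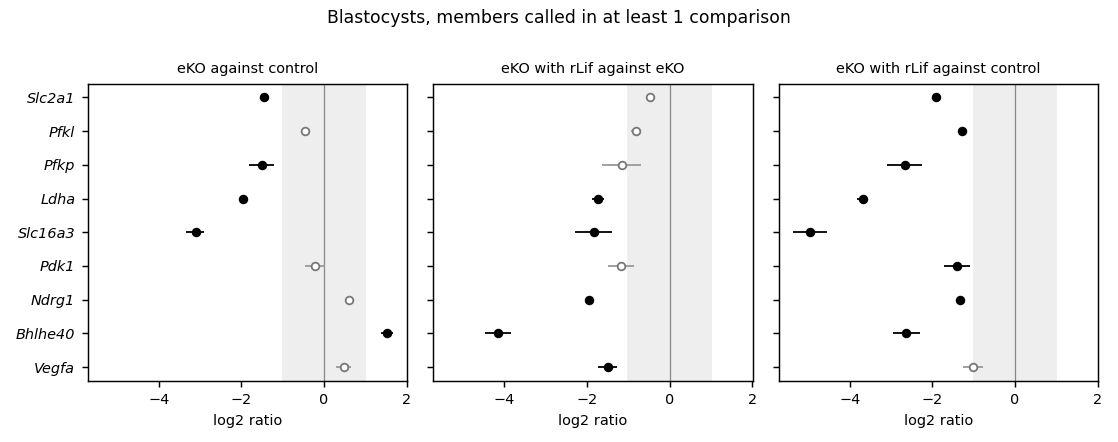
Log2 ratios of the 9 members called in at least 1 blastocyst comparison, drawn as for the luminal layer (filled points called, bars exact 95% intervals for counting error, grey band within 2-fold). Every filled point but Bhlhe40 in the first panel lies on the left, and Slc16a3 and Ldha are farthest left in the third panel, at -4.95 and -3.69.

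Of the 4 lactate genes, *Ldha* and *Slc16a3* were called lower in all 3 comparisons and *Slc16a1* and *Ldhb* in none. *Ldha* had 7174 counts in control blastocysts, 1888 in eKO and 567 in rLif-treated eKO. It was 3.90-fold lower in eKO (-1.96, interval -2.04 to -1.89), 3.31-fold lower again with rLif, and 12.9-fold lower with rLif than in control. *Slc16a3* had 1668, 198 and 55 counts in the same order, 8.64-fold lower in eKO (-3.11, interval -3.33 to -2.90) and 30.9-fold lower with rLif than in control (-4.95, interval -5.37 to -4.56). Both genes thus stepped down from control to eKO to rLif-treated eKO, and rLif did not bring either nearer to control. *Slc16a1* had 12878, 12098 and 8790 counts and was not called, so the *Slc16a3* share of both transporters' RPKM went from 18.2% to 2.73% and 1.06%. *Ldhb* had 18, 15 and 17 counts, so that *Ldha* remained 95.7% to 99.6% of lactate dehydrogenase RPKM while its own level fell from 185 to 48.5 and 14.4 RPKM.

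Glucose uptake showed the same order for 1 transporter. *Slc2a1* had 6133, 2286 and 1648 counts, 2.75-fold lower in eKO (-1.46, interval -1.53 to -1.39) and 3.79-fold lower with rLif than in control. *Slc2a3* had 34498, 37261 and 20521 counts and was not called, at 0.08 (interval 0.05 to 0.10) for eKO and -0.78 for rLif against control. At 253 to 467 RPKM, *Slc2a3* remained the major transporter in all 3 blastocyst libraries, with 78.5%, 91.4% and 89.0% of both. *Hk2* had 7073, 8964 and 6060 counts and was not called.

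Of the phosphofructokinase genes, which encode the committed step of glycolysis, *Pfkl* (liver type) had 2584, 1922 and 1080 counts and was 2.44-fold lower with rLif than in control. *Pfkp* (platelet type) had 340, 123 and 55 counts, 2.83-fold lower in eKO and 6.30-fold lower with rLif than in control, though its exons overlap those of another gene. *Pfkm* (muscle type) had 171, 105 and 88 counts and was not called, at -0.99 (interval -1.37 to -0.61) with rLif. All 3 had their highest count in control and their lowest in rLif-treated eKO. *Aldoa*, *Tpi1*, *Pgam1* and *Pkm* were not called in blastocysts, with ratios of rLif-treated eKO to control from -0.51 to -0.17, and *Pgk1* was at -0.93 (interval -1.05 to -0.82). *Pdk1* had 321, 282 and 124 counts and was 2.64-fold lower with rLif than in control. *Aldoc*, so variable in the luminal layer, had 56, 64 and 21 counts in blastocysts and was not called, and *Pfkfb3* had 87, 81 and 83. Other members called in the luminal layer were not called here, with 204, 143 and 185 counts for *Gapdh* and 5, 25 and 19 for *Pdk4*. *Pfkfb4* had 201, 148 and 325 counts and was not called either. Its ratio with rLif against eKO was 1.14 (interval 0.86 to 1.43), the direction it had in the luminal layer. *Hk1*, *Gpi1*, *Eno2*, *Pdk2*, *Pfkfb1*, *Pfkfb2*, *Egln3* and *Car9* were called in neither tissue, and their blastocyst ratios of eKO to control ran from -1.55 (*Eno2*, 14 to 42 counts) to 0.32 (*Pdk2*).

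Of the 8 hypoxia-responsive genes, *Bhlhe40* was called higher in eKO than in control, and *Bhlhe40*, *Ndrg1* and *Vegfa* were called lower with rLif than in eKO. *Bhlhe40*, whose exons overlap those of another gene, had 558, 1639 and 92 counts, 2.86-fold higher in eKO than in control (1.52, interval 1.38 to 1.66) and 17.7-fold lower with rLif than in eKO. *Ndrg1* had 19257, 30189 and 7787 counts, at 0.61 in eKO against control and 3.86-fold lower with rLif than in eKO. *Vegfa* had 425, 608 and 214 counts, at 0.48 in eKO against control, and was 2.83-fold lower with rLif than in eKO. The other 5 genes of the role were not called. *Bnip3* had 8534, 8486 and 8916 counts, *P4ha1* 1208, 1374 and 888, *Ankrd37* 117, 120 and 61, and *Adm* 13, 14 and 5. Neither *Hif1a*, with 2435, 2555 and 2351 counts, nor *Egln1*, with 12743, 16646 and 15309, was called, and *Hif1a* was within 1.08-fold in every blastocyst comparison.

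Traces of other cells were measured beside these values. Immune markers, 11 of 11 detected, summed to 75.5, 134 and 27.7 RPKM in control, eKO and rLif-treated eKO, the order of *Bhlhe40*, *Ndrg1* and *Vegfa*. The macrophage gene *Lyz2* had 976, 2128 and 289 of their 1696, 2945 and 640 counts. Not every listed gene had that order, with *Cd74* at 286, 175 and 131 counts, *C1qa* at 104, 97 and 34 and *Cd3e* at 26, 4 and 14. Of the 11, 0 were called higher and 1 lower in eKO against control, at a median log2 ratio of 0.65. Genes that answer tissue handling summed to 254, 286 and 216 RPKM in that order too, and the heat shock genes *Hspa1b*, with 200, 285 and 80 counts, and *Hspa1a*, with 46, 52 and 8, were called lower with rLif than in eKO. Uterine stroma markers summed to 33.1, 29.8 and 27.2 RPKM with *Hand2* at 0 in eKO. Most of those counts were of *Pdgfra*, which is also a primitive endoderm gene, and without *Pdgfra* and *Pdgfrb* the other 10 stroma genes had 792, 401 and 278 counts, the order of *Ldha* and *Slc16a3*. Of 11 stroma markers tested, 2 were called lower in eKO against control and 5 with rLif against control, with median log2 ratios of -1.06 and -1.28. Luminal epithelium markers summed to 4840, 5030 and 4660 RPKM, with *Wnt7a* at 0 in all 3. Of 11 tested, 1 was called lower in eKO against control (*Krt19*, with 1401, 241 and 108 counts). With rLif against control, 2 were called lower, *Krt19* and *Cldn3* (3144, 2756 and 1499 counts), and 9 were not called. The median log2 ratios of the list were -0.004 and -0.27. For comparison, *Ldha* had 35091 counts in the luminal layer under the control label and 7174 in control blastocysts. *Ldhb* had 10292 and 18 counts in the same 2 libraries, and *Slc16a3* 214 and 1668. Levels of these genes in stroma alone were not measured. The part of maternal RNA and of handling in the members' values was not tested.

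Between the tissues, 13 of the 40 members were at least 2-fold apart between their nearest libraries, 7 higher in the luminal layer and 6 higher in blastocysts. Of 16911 genes, 24.2% were apart in the first direction and 22.4% in the second, and the members' shares were below these backgrounds. *Ldhb* was 111-fold, *Pdk3* 37.5-fold, *Adm* 26.8-fold, *Pfkfb3* 12.3-fold and *Ldha* 4.09-fold higher in the luminal layer, nearest libraries compared, with *Hk1* and the uncertain *Eno1* also on that side. *Car9* was 5.85-fold, *Slc16a1* 4.62-fold, *Hk2* 2.88-fold, *Slc2a3* 2.73-fold, *Pfkfb1* 2.70-fold and *Bnip3* 2.06-fold higher in blastocysts. Transcripts for glucose uptake and phosphorylation in blastocysts were mostly those of *Slc2a3* and *Hk2*. The PFKFB family was represented mostly by *Pfkfb3* in the luminal layer, where it was 64.6% to 90.1% of the family's RPKM, against 5.59% to 7.17% in blastocysts. The tissues were counted in separate tables and levels were set on 1 scale by TMM over the 6 libraries. Tissue and way of collection, laser-cut sections or washed-out blastocysts, cannot be told apart in these differences.

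Other genes of carbohydrate metabolism and oxygen response, 122 in 8 lists, were read the same way. In the luminal layer 110 were tested, and 13 were called higher and 12 lower in eKO against control, 22.7% where 17.2% of all genes were called. With rLif against eKO 14 were higher and 15 lower, 26.4% against 15.6%. With rLif against control 2 were higher and 9 lower, 10.0% and so near the 9.16% of all genes. *Stc1*, the hypoxia-induced hormone stanniocalcin, counted 161 reads under the control label, 2865 under eKO and 176 under eKO + rLif. *Pdp2*, a phosphatase that activates pyruvate dehydrogenase, had 302, 1558 and 331 counts. Both genes were called higher in eKO and lower with rLif than in eKO. *Pgf*, a placental growth factor of the Vegf family, had 11197, 856 and 9637 counts, *H6pd*, which starts the pentose phosphate pathway inside the endoplasmic reticulum, 6912, 655 and 5365, and *Arnt2*, a Hif partner subunit, 1497, 146 and 2064. *Hmox1*, heme oxygenase, had 1416, 357 and 1947 counts, and *Slc37a4*, which carries glucose 6-phosphate into the endoplasmic reticulum, 5270, 936 and 2909. These 5 genes were called lower in eKO and higher with rLif than in eKO. *Slc5a1*, the sodium-coupled glucose transporter SGLT1, had 765, 335 and 1351 counts with calls in the same directions. Of the genes of glucose formation, *Fbp2*, a fructose bisphosphatase, had 12, 108 and 11 counts and its sister gene *Fbp1* had 0, 30 and 0, both higher in eKO. Of the glycogen genes, *Ugp2*, which makes UDP-glucose, had 2759, 6902 and 3192 counts and was higher in eKO, and *Gyg*, the glycogen primer, had 972, 498 and 1542 and was higher with rLif than in eKO. *Epas1*, the Hif2 alpha subunit, had 729, 464 and 1256 counts and was likewise higher with rLif than in eKO.

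In blastocysts 103 of these genes were tested, with 1 called higher and 2 lower in eKO against control, 1 higher and 5 lower with rLif against eKO, and 0 higher and 6 lower with rLif against control. These shares, 2.91%, 5.83% and 5.83%, were near the 3.15%, 3.75% and 4.94% of all genes. *Cited2*, which Hif1 induces and which restrains it, had 5331, 2856 and 1976 counts in control, eKO and rLif-treated eKO and was called lower with rLif than in control, at -1.46. In the luminal layer it had 3169, 1047 and 549 counts in the order of the labels, called lower in both eKO libraries than in control. *Hmox1* had 1992, 1281 and 737 counts in blastocysts and was called lower with rLif than in control, also at -1.46.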

How the data were processed

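RNA-seq libraries had been made by the authors with a SMART-seq v4 kit from low RNA input, aligned to GRCm38/mm10 with HISAT2 and counted with featureCounts (Subread 2.0.0 in the submitters' processing notes). The deposited values are whole-number counts per gene, 1 table per tissue, not normalised; the methods of the study call them RPKM, but they are whole numbers with differing totals. Annotation release, strand and multi-mapping settings are not given in the sources used here. No column was left unassigned. Groups came from the labels.

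Genes with at least 10 counts over the 3 libraries of a tissue were tested (15694 luminal, 14873 blastocyst). Library sizes were TMM-scaled (edgeR 4.0.16, R 4.3.3). Intervals were exact Clopper-Pearson at 95% (scipy 1.17.1, Python 3.11.15). RPKM used the deposited exon lengths. The size rule compares 2 libraries, not conditions. It was tested on simulated counts that held counting error only. That test cannot show how often the rule errs where animals or PCR add spread. Shared sequence was measured in GENCODE M21 transcripts, in windows of 50 bases, and motifs in RefSeq promoter windows. Members with a call and the highest-RPKM member of each role are given in all 6 libraries, and at most 4 called genes of each other list were eligible to be named by distance from the limit, 1 of which is not reported here; *Lyz2*, *Hspa1a*, *Hspa1b*, *Prss28*, *Cldn3*, *Krt19* and *Wnt7a*, and the genes left out of marker sums, were chosen after their values were seen. Members, lists and rules were chosen with earlier results of these data known. Alternatives were other scalings, minimums and limits, and edgeR's exact test at a fixed dispersion of 0.1 and an FDR of 0.05.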

Additional observations from a re-analysis of the deposited data

Results flagged for a closer look

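*Ndrg1* moved in opposite directions in the 2 tissues when libraries from rLif-treated *Lif* eKO females were compared with those from untreated *Lif* eKO females. The log2 ratio was 2.86 in the luminal layer, from 1433 to 9431 counts, and -1.95 in blastocysts, from 30189 to 7787 counts. With 1 library per group the difference was not tested. The sum of immune markers had the order of *Ndrg1* in blastocysts, though not every listed gene did. It was at 134 RPKM in eKO and 27.7 RPKM with rLif there, and at 1510 and 1870 RPKM in the luminal layer. The part of immune cells was not tested.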

How the results depend on the processing

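No paired analysis was possible because each group is 1 library, and for the same reason no replicate could be left out. No call of a member changed direction under any of the 11 settings. Of 53 calls of members, 53 were kept with DESeq2 size factors, without a count minimum, with a minimum of 50 and with a limit of 0.5, 52 with TMM over the 6 libraries, 51 with total counts, 47 with *Actb* as the reference, 21 with edgeR's exact test at a dispersion of 0.1 and 20 with a limit of 2. For luminal eKO against control, a limit of 0.5 gave 23 calls. For luminal rLif against eKO, a limit of 2 and edgeR each gave 5 calls, and the median became -0.0725 with *Actb*. For luminal rLif against control, calls were 17 at a limit of 0.5, 0 at a limit of 2 and 1 with edgeR. For blastocyst eKO against control, they were 8 at a limit of 0.5, 1 at a limit of 2 and 1 with edgeR, and the median became 0.14 with *Actb*. For blastocyst rLif against eKO, they were 14 at a limit of 0.5, 1 at a limit of 2, 1 with edgeR and 12 when the ratio itself had to pass the limit. For blastocyst rLif against control, they were 16, 4, 4 and 13 in the same order, and 5 with a median of -0.0798 when *Actb* was the reference. *Actb* moved the median of all genes by 0.17 and -0.22 in luminal eKO against control and rLif against eKO, and by 0.30 and 0.39 in blastocyst eKO and rLif against control; total counts moved it by -0.11 and -0.18 in luminal rLif against eKO and control. Members with at least 20% shared windows or overlapping exons were left out as a setting chosen after seeing the data, which left 5 luminal calls for rLif against control and 3 blastocyst calls for eKO against control. Between the tissues, 23 of 40 members did not overlap, where 74.2% of 16911 genes did not, and 7 were 4-fold apart, where 28.2% were. The cause of these differences was not tested beyond the change of limit, reference or members itself.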
